A study of Homo sapiens with 4 samples.

Results

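The response of PLC/PRF/5 cells to inhibition of site-1 protease was described across 6366 genes. PLC/PRF/5 was derived from a human liver tumour and has hepatitis B virus DNA in its genome. RNA was sequenced from 1 culture labelled control at 24 h and from 1 kept for 24 h with 20 uM PF429242 (PF-429242). This compound blocks site-1 protease. The labels give the genotype of both cultures as WT. The same pair of libraries from HepG2, a human liver tumour line, is used for comparison. The 6366 genes are the nuclear protein-coding genes with at least 5 FPKM (fragments counted for a gene, scaled to its length and to the depth of the library) in either PLC/PRF/5 library, out of 16696 nuclear protein-coding genes and 32479 genes in all. Of these, 5761 reached 5 FPKM in both libraries, 464 in the control alone and 141 in the treated library alone. With 1 library in each group there was no replicate check and no p-value was computed, so every difference is one between 2 libraries.

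Site-1 protease is a Golgi enzyme that makes the first cut in membrane-bound transcription factors that have travelled there from the endoplasmic reticulum (ER). Its substrates include SREBP1 and SREBP2, which switch on the genes of fatty acid and cholesterol synthesis when sterols are scarce, and ATF6, which switches on ER chaperone genes when unfolded proteins accumulate. It also cuts CREB3-family factors and the precursor of the enzyme that tags lysosomal proteins with mannose-6-phosphate. In the liver the sterol arm sets both cholesterol production and the clearance of lipoproteins from blood.

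The response of a gene is given as the log2 ratio of treated to control (FPKM + 1), minus the median of all 6366 genes, and is called the centred ratio. That median was -0.16 on the deposited scale. A gene was counted as higher or lower at a centred difference of 1.5-fold or more. The control held 21387301 counted fragments and the treated library 16982560, with a median of 1273 and 907 fragments per described gene. Mitochondrially encoded transcripts took 21.3% of the control's fragments (21.30 to 21.34, the exact 95% Clopper-Pearson range) and 28.2% of the treated library (28.17 to 28.21). In bulk RNA a smaller share of cells that express a gene and less of its RNA per cell cannot be told apart. The liver lineage was visible in both libraries, where all 11 hepatocyte markers were detected and summed to 3256 FPKM in the control and 3556 in the treated library. All 6 fibroblast and all 4 blood cell marker genes lay under 1 FPKM in both, as did 3 of 4 endothelial markers, the exception being PECAM1 at 1.36 and 1.03 FPKM.

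The PLC/PRF/5 libraries differed in 1 further respect that touches the results below. Genes strongly expressed in HepG2 were all present in PLC/PRF/5, and among those lowest relative to HepG2 this level was higher in the treated pair. Of 1369 genes outside chromosome Y with at least 20 FPKM in both HepG2 libraries, 0 were under 3% of the HepG2 level in PLC/PRF/5, in either pair. The lowest was AKR1B10, an aldo-keto reductase, at 3.66% in the control pair and 5.06% in the treated pair. The first percentile of these genes lay at 11.1% in the control pair and 20.6% in the treated pair, and 64 genes against 12 lay under 20%. The median over all 1369 genes was 84.8% in the control pair and 89.0% in the treated pair, and single genes such as UHRF1 (38.4% and 16.3%) went the other way. In the other direction there was no such floor, since 27 of 1386 genes with at least 20 FPKM in both PLC/PRF/5 libraries were under 3% in HepG2 in each pair, some of them listed at 0. Single liver genes showed the same. AFP, the fetal albumin-like protein, went from 9.67% to 17.8% of the HepG2 level, DLK1, a fetal growth regulator, from 9.51% to 21.0%, and AHSG, a secreted liver glycoprotein, from 13.3% to 28.0%. ALB, serum albumin, went from 24.1% to 47.4%.

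**Figure D1:**
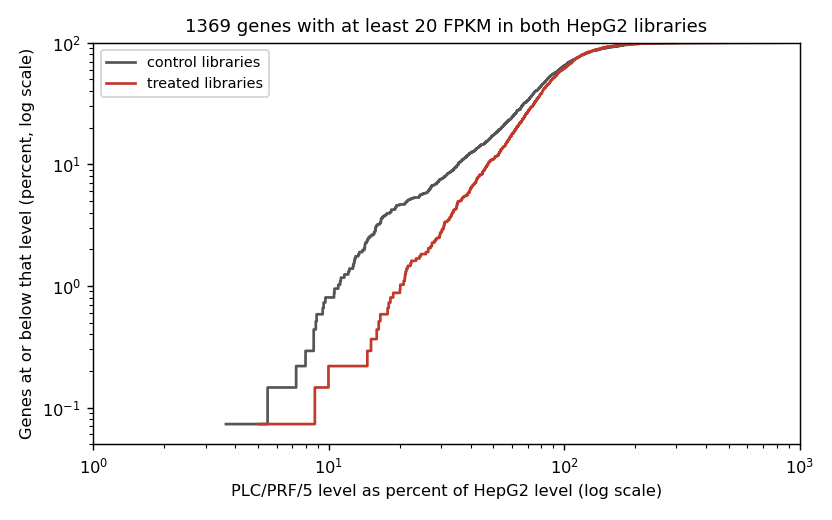
Cumulative share of 1369 genes (vertical axis, percent, log scale) by their PLC/PRF/5 level as a percent of their HepG2 level (horizontal axis, log scale), for the control pair of libraries and the treated pair. Neither line reaches below 3%, and the treated line lies to the right of the control line at its low end, with a first percentile of 20.6% against 11.1%.

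Across all genes the centred ratio followed the level in HepG2 relative to PLC/PRF/5. The 37 genes at least 4 times higher in HepG2 than in PLC/PRF/5, summed over both libraries of each line, had a median centred ratio of 0.81, and 33 of them were called higher. Their median response within HepG2 was -0.01. The 234 genes that were 2 to 4 times higher in HepG2 had a median of 0.48, the 3085 genes up to 2 times lower had -0.05, and the 118 genes at least 8 times lower had -0.31. By chromosome, the highest median belonged to chromosome 16 at 0.16 (237 genes) and the lowest to chromosome X at -0.11 (249 genes). The median level in HepG2 relative to PLC/PRF/5 was 0.36 and -0.68 on the log2 scale for these chromosomes. Whether the PLC/PRF/5 libraries hold RNA from HepG2 cells, and what part that has in the treated-to-control differences, was not tested. For a gene that is much higher in HepG2, such as ALB, AFP, AHSG or SULT2A1, a higher level in the treated PLC/PRF/5 cells and a larger share of HepG2-type RNA in that library cannot be told apart. Counts of higher and lower genes are therefore also given relative to genes of a like level in HepG2. Here and below this means a like level in HepG2 relative to PLC/PRF/5, not a like FPKM in HepG2. Genes were ranked by that relative level into 40 equal groups, and the median of the group was subtracted. Counts are also given over the 3807 genes no higher in HepG2 than in PLC/PRF/5. Both measures were added after the values were seen.

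Most genes differed little. The middle 50% of centred ratios ran from -0.13 to 0.13, the 5th and 95th percentiles were -0.35 and 0.42, and 6110 genes (96.0%) were called neither higher nor lower. There were 179 higher genes (2.81%) and 77 lower genes (1.21%), and 31 (0.487%) and 23 (0.361%) at 2-fold. The split depended on the scale. On the deposited scale without centring there were 113 higher and 185 lower genes, and after scaling both libraries to equal FPKM sums there were 24 and 1618. Of the 179 higher genes, 117 (65.4%) were at least 2 times higher in HepG2, against 271 (4.26%) of all 6366. Relative to genes of a like level in HepG2, 65 genes were higher (1.02%) and 65 lower (1.02%), and these held 55 of the 179 and 48 of the 77. Among genes no higher in HepG2, 28 were higher (0.735%) and 46 lower (1.21%).

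**Figure D2:**
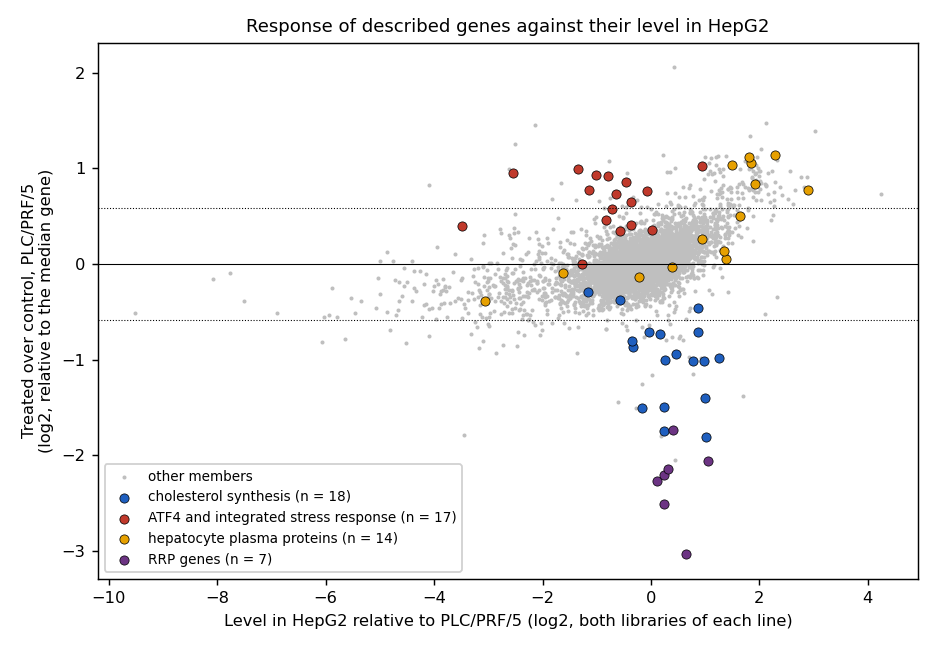
Centred log2 ratio of treated to control in PLC/PRF/5 (vertical axis) against the log2 level in HepG2 relative to PLC/PRF/5 (horizontal axis) for 6366 genes, 1 point per gene, with 1.5-fold marked by dotted lines. Cholesterol synthesis genes lie below 0 at all levels, stress response genes lie at or above 0 and mostly to the left, and the plasma protein genes that lie above the upper dotted line are all to the right.

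The cholesterol synthesis genes were lower as a group. All 18 described genes of the pathway had centred ratios below 0, from -1.81 to -0.29 with a median of -0.96, and 15 were called lower, 7 of them at 2-fold. Their summed level was 401 FPKM in the control and 174 FPKM in the treated library. The background was 1.21% of all genes called lower. Relative to genes of a like HepG2 level 16 of 18 were lower with a median of -1.06, and of the 6 genes no higher in HepG2, 4 were lower. The pathway's other genes in the table, HSD17B7 and CYP51A1, lay under 5 FPKM in both libraries, at 4.77 and 1.87 FPKM and at 2.57 and 1.42 FPKM.

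The early steps make isoprenoid units from acetyl-CoA. ACAT2, which joins 2 acetyl-CoA molecules, was at 21.8 FPKM in the control and 9.11 in the treated library. HMGCS1, which makes HMG-CoA, was at 28.1 and 8.29 FPKM, a ratio of 0.295 (95% counting interval 0.274 to 0.317). The kinases of the mevalonate steps differed less: MVK was at 5.56 and 3.55 FPKM (centred ratio -0.37) and PMVK at 12.8 and 9.11 FPKM (-0.29), neither called lower. MVD, the decarboxylase that follows them, was at 5.87 and 2.77 FPKM. IDI1, the isomerase of isopentenyl diphosphate, was lower again, at 29.1 and 8.54 FPKM. FDPS, which builds farnesyl diphosphate, was at 18.2 and 7.62 FPKM.

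The later steps make the sterol ring and trim it. FDFT1 (squalene synthase) was at 18.2 and 7.70 FPKM, SQLE (squalene epoxidase) at 29.8 and 9.49, and LSS (lanosterol synthase) at 12.6 and 5.37. MSMO1, which removes the methyl groups at C4, had the lowest ratio of the pathway, 29.8 FPKM in the control and 6.90 in the treated library (ratio 0.231, 0.205 to 0.260, centred -1.81). Its partner NSDHL was at 18.7 and 8.67 FPKM. TM7SF2, a sterol C14 reductase, was at 9.26 and 4.25 FPKM. EBP and SC5D, which shift and add double bonds, were at 16.7 and 8.66 FPKM and at 10.3 and 5.09 FPKM. DHCR7, the reductase that acts on 7-dehydrocholesterol, was at 33.5 and 8.22 FPKM (centred -1.75).

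**Figure D3:**
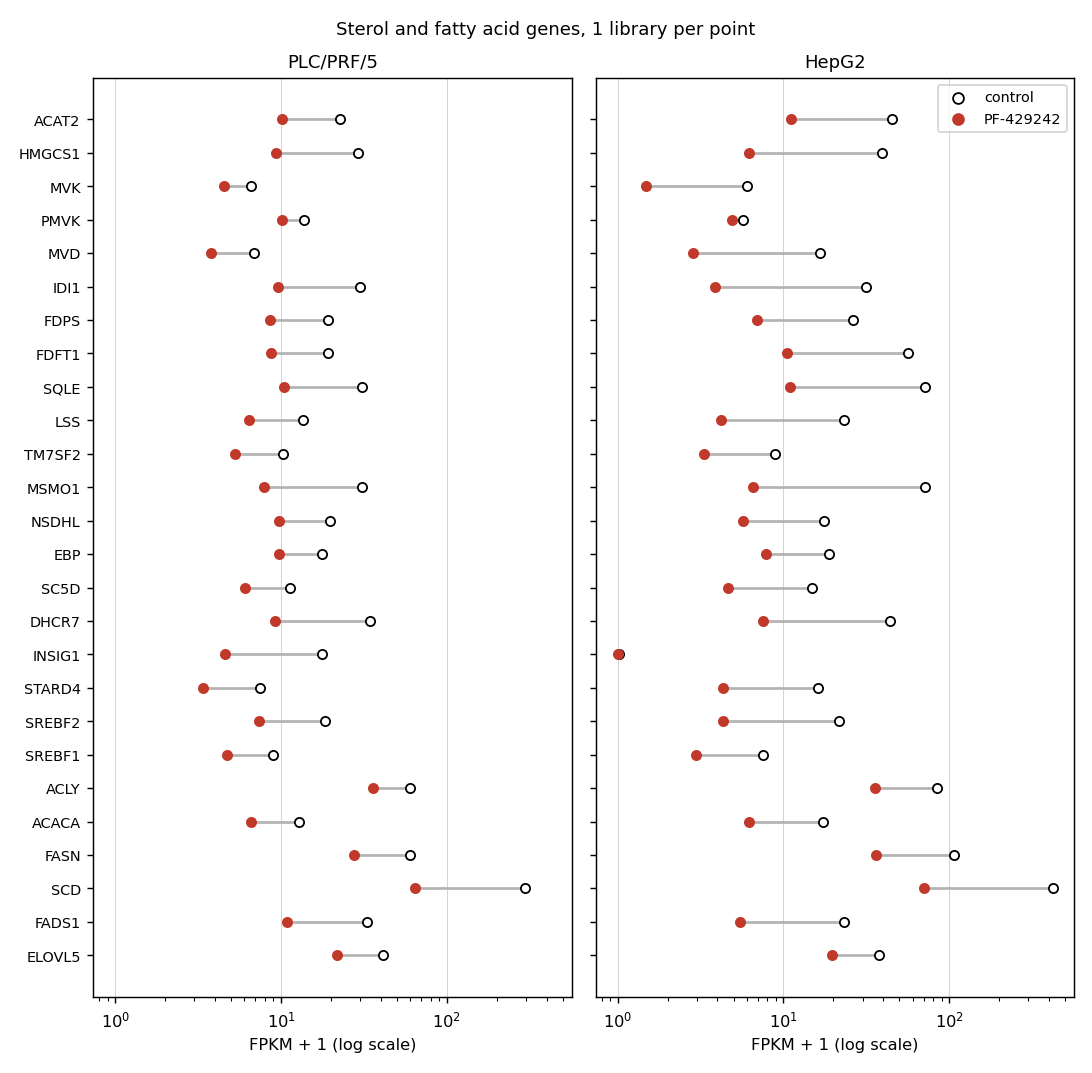
FPKM + 1 on a log scale for 26 sterol and fatty acid genes in PLC/PRF/5 (left) and HepG2 (right), with an open circle for the control library and a filled circle for the treated one. In PLC/PRF/5 every filled circle lies to the left of its open circle, with the longest lines for SCD, MSMO1, INSIG1 and DHCR7.

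The upstream sequence of several of these genes is given because SREBPs act at promoters together with the CCAAT-binding factor NF-Y. Each window below is the 200 bases before the RefSeq start (GRCh38.p14), written in the direction of transcription, with CCAAT or its reverse complement in capitals and, in SREBF2, also a match to the sterol element letters TCACNCCAC. In INSIG1 the E-box CACGTG is in capitals as well.
SREBF2, chr22:41832905-41833104, plus strand: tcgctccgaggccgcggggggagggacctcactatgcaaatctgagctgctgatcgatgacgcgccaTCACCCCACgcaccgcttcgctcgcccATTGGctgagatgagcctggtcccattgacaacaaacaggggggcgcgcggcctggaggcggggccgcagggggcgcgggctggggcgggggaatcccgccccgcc
HMGCS1, chr5:43313413-43313612, minus strand: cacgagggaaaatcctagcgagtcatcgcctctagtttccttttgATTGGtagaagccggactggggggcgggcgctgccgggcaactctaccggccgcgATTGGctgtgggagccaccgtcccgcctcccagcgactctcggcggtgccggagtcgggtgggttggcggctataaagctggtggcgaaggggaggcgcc
MSMO1, chr4:165327469-165327668, plus strand: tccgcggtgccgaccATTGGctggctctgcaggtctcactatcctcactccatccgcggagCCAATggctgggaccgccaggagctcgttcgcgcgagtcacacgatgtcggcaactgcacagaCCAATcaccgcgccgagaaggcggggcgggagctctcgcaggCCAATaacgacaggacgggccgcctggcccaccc
SCD, chr10:100347033-100347232, plus strand: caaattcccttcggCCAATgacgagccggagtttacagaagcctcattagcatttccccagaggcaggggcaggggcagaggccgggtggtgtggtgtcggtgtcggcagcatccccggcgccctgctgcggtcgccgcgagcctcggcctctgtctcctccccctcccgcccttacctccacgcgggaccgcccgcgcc
INSIG1, chr7:155297678-155297877, plus strand: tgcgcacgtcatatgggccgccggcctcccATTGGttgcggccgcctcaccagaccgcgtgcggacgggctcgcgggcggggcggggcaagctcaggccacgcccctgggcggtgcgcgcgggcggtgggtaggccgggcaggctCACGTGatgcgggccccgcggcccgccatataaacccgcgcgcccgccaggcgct
MSMO1 held 4 CCAAT matches in this window, HMGCS1 2, and SREBF2, SCD and INSIG1 1 each. RefSeq windows of 250 bases before to 50 after the start were found for 5315 of the 6366 genes, and both strands were searched. CCAAT was in 12 of the 13 cholesterol synthesis genes with a window (92.3%), against 2344 of 5315 of all genes (44.1%) and 32 of 59 genes called lower (54.2%). It was also in 10 of 14 integrated stress response genes (71.4%) and 6 of 8 serine, one-carbon and proline synthesis genes (75%), lists without lower genes. Of 122 genes called higher 47 held it (38.5%), and of 16 aminoacyl-tRNA synthetase genes 7 (43.8%). These 5 letters were added to the search after the values were seen. The letters TCACNCCAC were in 0 of the 13 and in 79 of 5315 (1.49%). They were in 2 of 59 genes called lower (3.39%), SREBF2 being 1 of them, and in 5 of 122 genes called higher (4.1%). CACGTG was in 2 of the 13 and in 13.5% of all genes.

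Sterol sensing and uptake genes were mixed, with 4 of 13 lower, 1 higher and a median of -0.15. Over all genes 1.21% were lower and 2.81% higher. Relative to genes of a like HepG2 level 5 of the 13 were lower and 0 higher, beside 1.02% of all genes in each direction. INSIG1, which holds SREBPs in the ER when sterols are plentiful and is itself an SREBP target, was at 16.6 FPKM in the control and 3.57 in the treated library, a ratio of 0.215 (0.185 to 0.248). It was all but absent from HepG2, where it was listed at 0.0164 FPKM in the control and 0 in the treated library. STARD4, a sterol carrier, was at 6.46 and 2.37 FPKM. INSIG2, a relative of INSIG1, was on the other side at 6.45 and 10.6 FPKM (centred 0.80). But it was also at 24.2 FPKM in the HepG2 control and lay at 0.12 relative to genes of a like HepG2 level.

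The protease, its substrates and the SREBP handling genes had a median of -0.07. Of these 11 genes 2 were lower and 0 higher, against 1.21% and 2.81% of all genes. The lower genes were those of both SREBPs. SREBF2 was at 17.4 and 6.34 FPKM, a ratio of 0.366 (0.338 to 0.395), and SREBF1 at 7.95 and 3.70 FPKM, a ratio of 0.466 (0.420 to 0.516). The transcript of the inhibited enzyme itself, MBTPS1, was at 9.70 and 9.38 FPKM (centred 0.11), and that of site-2 protease, MBTPS2, which makes the next cut, at 13.8 and 9.31 FPKM (-0.36). FURIN, a related Golgi protease, was at 59.9 and 56.1 FPKM (0.07). None of the other substrates was called higher or lower, with ATF6 at 8.67 and 8.39 FPKM (0.12), ATF6B at 15.6 and 13.5 (-0.04), CREB3 at 49.2 and 38.3 (-0.19), CREB3L3 at 14.2 and 12.01 (-0.07), CREB3L2 at 16.0 and 17.6 (0.29) and GNPTAB, the mannose-6-phosphate enzyme, at 8.28 and 5.90 (-0.27).

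Fatty acid and triglyceride synthesis genes were lower as a group but less evenly. Of 19 genes, 16 had ratios below 0, the median was -0.46, and 6 were called lower and 0 higher. Over all genes 1.21% were lower and 2.81% higher. Against genes of a like HepG2 level 8 of the 19 were lower (median -0.39), beside 1.02% of all genes. Of the 9 genes no higher in HepG2, 3 were lower, beside 1.21% of all such genes. The summed level of the 19 genes was 780.4 FPKM in the control and 367 FPKM in the treated library, and SCD accounted for much of it. SCD, the desaturase that makes oleate, was at 296 FPKM in the control and 63.6 in the treated library, a ratio of 0.215 (0.209 to 0.221) and the lowest centred ratio (-2.04) of any gene outside the RRP genes described below. FADS1, the delta-5 desaturase of long polyunsaturated fatty acids, was at 31.8 and 9.87 FPKM. The backbone enzymes were lower by smaller amounts, with FASN (fatty acid synthase) at 59.2 and 26.5 FPKM, ACACA (acetyl-CoA carboxylase) at 11.8 and 5.58, and ACLY, which supplies cytosolic acetyl-CoA, at 59.3 and 35.0 (centred -0.58, just short of 1.5-fold). Of the elongases, ELOVL5 was at 40.2 and 20.7 FPKM and ELOVL6 at 5.32 and 2.77, both called lower, and ELOVL1 at 31.7 and 19.2 (-0.53). None of the enzymes that activate acids was called lower, with ACSS2 at 6.49 and 3.51 FPKM (-0.57), ACSL3 at 28.4 and 18.2 (-0.46) and ACSL4 at 85.9 and 62.6 (-0.29). Further genes of elongation and supply lay below 0 and were not called, with ME1 (malic enzyme, listed at 0 in HepG2) at 27.2 and 19.1 FPKM (-0.33), HACD3 at 40.6 and 30.3 (-0.25), MID1IP1 at 10.6 and 8.001 (-0.21) and TECR at 13.5 and 10.7 (-0.15). Enzymes nearer to triglyceride assembly were not called in either direction: GPAM, which acylates glycerol phosphate, was at 5.97 and 7.82 FPKM (0.50), AGPAT2 at 8.27 and 6.07 (-0.23), DGAT1 at 5.85 and 5.49 (0.08) and LPIN2 at 12.4 and 11.5 (0.06). The 10 phospholipid synthesis genes had a median of 0.04 and 0 calls.

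Lower genes outside these lists included some that work beside them, named here after their values were seen. ERG28, an ER scaffold of the sterol C4 demethylation enzymes, was at 12.2 and 5.86 FPKM (centred -0.79), and SLC25A1, the mitochondrial citrate exporter, at 36.8 and 19.1 FPKM (-0.75). DBI, the acyl-CoA binding protein, was at 48.5 and 25.2 FPKM (-0.76), and the retinol dehydrogenase gene RDH11 at 21.4 and 11.7 FPKM (-0.66). All of these were also lower in HepG2, with centred ratios of -1.84, -0.74, -0.83 and -0.96 relative to its own median gene.

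The same lipid genes differed in the same direction in HepG2, which has its own control. For the 17 cholesterol synthesis genes described in both lines the PLC/PRF/5 median was -0.98 and that of HepG2 -2.09, and the HepG2 value was the lower for all 17. For 16 fatty acid genes the medians were -0.50 and -0.80, with 12 of 16 lower in HepG2. Summed cholesterol synthesis transcripts were at 698 FPKM in the HepG2 control and 166 in treated HepG2, so that the lines differed in their controls and were close after treatment (174 FPKM in PLC/PRF/5). The difference between the lines was not tested, since each line gave 1 ratio per gene.

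ER chaperone and ATF6 target genes showed a smaller difference than the lipid genes. The 17 genes had a median of -0.17, 15 lay below 0 and 0 passed 1.5-fold in either direction. Relative to genes of a like HepG2 level their median was -0.11. Lists of actin, mitosis and DNA replication genes lay about as low, with medians of -0.22, -0.19 and -0.16. HSPA5, the main ER chaperone (BiP), was at 262 and 229 FPKM (centred -0.04), HSP90B1 at 380.1 and 299.9 FPKM (-0.18), and CALR, a calcium-binding chaperone, at 395 and 275 FPKM (-0.36). HERPUD1, a gene of ER-associated degradation, lay on the other side at 14.8 and 17.8 FPKM (0.41). The 26 genes of XBP1 targets, ER import and degradation had a median of -0.01 and the 26 ER-to-Golgi transport genes one of -0.06, with 0 calls in each.

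Genes of the integrated stress response were higher. In this response, kinases that sense amino acid shortage, ER stress or other strain slow translation and raise the transcription factor ATF4. All 17 described genes of the list lay at or above 0, with a median of 0.73, and 10 were called higher (against a background of 2.81%) and 0 lower. Relative to genes of a like HepG2 level 12 were higher with a median of 0.76, and 9 of the 15 genes no higher in HepG2 were higher. Their summed level was 482 FPKM in the control and 684 in the treated library. The ATF4 letters TGATGNAAT were in 0 of the 14 promoter windows of this list and in 36 of 5315 of all genes (0.677%).

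DDIT3 (CHOP), a pro-death transcription factor, was at 11.8 FPKM in the control and 21.8 in the treated library, a ratio of 1.85 (95% counting interval 1.61 to 2.14). ATF3, another early stress factor, was at 2.62 and 5.12 FPKM, and NUPR1, a small stress-induced chromatin protein, at 6.65 and 12.3 FPKM. The secreted members were abundant: GDF15, a stress hormone that acts on appetite, was at 141 and 241 FPKM (1.66 to 1.77 on a ratio of 1.71), and STC2, a glycoprotein hormone, at 16.5 and 27.5 FPKM. PPP1R15A (GADD34), which restores translation, was at 11.98 and 18.9 FPKM, and SESN2, which signals amino acid lack to mTORC1, at 9.48 and 14.6. TRIB3, a pseudokinase, was at 8.09 and 15.6 FPKM. TRIB3 was higher in HepG2, with PLC/PRF/5 at 34.4% of the HepG2 level in the control pair and 66.3% in the treated pair. CEBPB, a partner of ATF4, was at 25.3 and 35.9 FPKM, and CTH, which makes cysteine, at 6.51 and 9.001 FPKM (centred 0.57, just short of 1.5-fold). DDIT4, an inhibitor of mTORC1, was at 15.2 and 19.0 FPKM (0.46), EIF4EBP1, a brake on translation, at 43.9 and 52.2 (0.40), CHAC1, which degrades glutathione, at 13.2 and 15.7 (0.40), and CEBPG at 23.5 and 27.0 (0.35). ATF4 itself was at 120.3 and 138.2 FPKM (centred 0.36), and ATF5 at 16.2 and 14.4 FPKM (0.00). ASNS, asparagine synthetase, lay under the filter at 1.404 and 1.52 FPKM.

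Metabolic genes known as ATF4 targets passed 1.5-fold less often than the stress response genes. The share of all genes called higher was 2.81%. Of 13 genes of serine, one-carbon and proline synthesis 12 lay above 0, the median was 0.24 and 3 were called higher. Against genes of a like HepG2 level 1 was higher and 1 lower, 0 of the 5 genes no higher in HepG2 were higher, and on the deposited scale 1 of the 13 was higher. PSAT1, of the serine pathway, was at 94.95 and 129.6 FPKM and SHMT2, the mitochondrial serine hydroxymethyltransferase, at 20.5 and 28.2 FPKM. GPT2, an alanine aminotransferase, was at 15.3 and 27.3 FPKM and was 48.0 FPKM in HepG2. All 11 amino acid transporter genes lay above 0 with a median of 0.38 and 2 called higher, SLC7A11 (the cystine carrier) at 9.98 and 15.6 FPKM and SLC3A2, its partner chain, at 33.7 and 46.4. Of 20 cytosolic aminoacyl-tRNA synthetase genes 18 lay above 0 with a median of 0.15 and 0 called. WARS1 was the highest of them at 13.9 and 17.8 FPKM (centred 0.49). The same list medians in HepG2 were 0.67 for the stress response genes (0.69 in PLC/PRF/5 over the 14 shared genes), 0.39 for serine and one-carbon genes, 0.43 for the transporters and 0.22 for the synthetases.

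**Figure D4:**
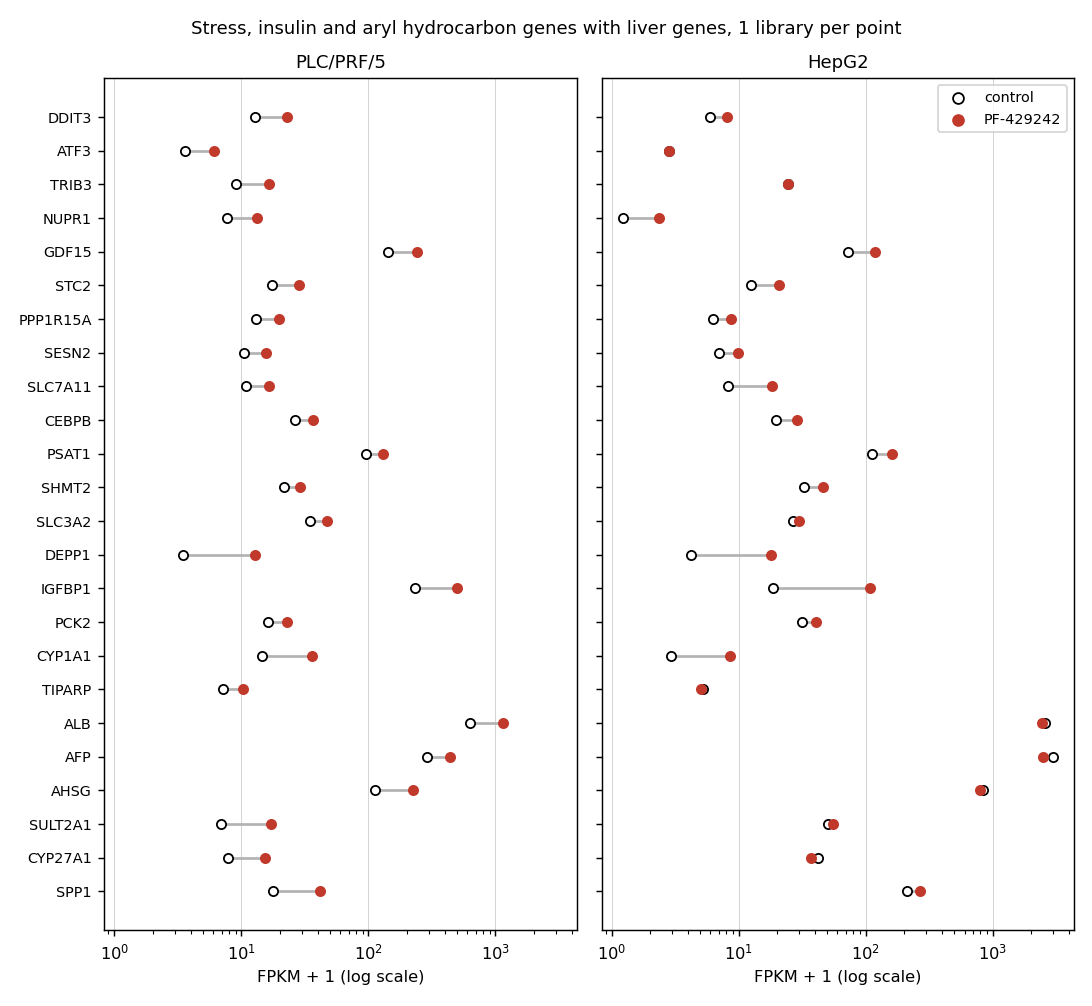
FPKM + 1 on a log scale for 24 genes of the stress response, insulin and FOXO, aryl hydrocarbon and liver groups in PLC/PRF/5 (left) and HepG2 (right), with an open circle for the control and a filled circle for the treated library. In PLC/PRF/5 every filled circle lies to the right, while in HepG2 the liver genes ALB, AFP, AHSG, SULT2A1 and CYP27A1 have nearly overlapping circles at higher levels.

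Genes kept off by insulin through the FOXO transcription factors included the highest gene of all. DEPP1, a FOXO target, was at 2.45 FPKM in the control and 11.9 in the treated library (156 and 601 fragments), a ratio of 4.85 (4.06 to 5.82). IGFBP1, which binds insulin-like growth factors in the blood, was at 230.5 and 494 FPKM, a ratio of 2.14 (2.08 to 2.20). Both were also higher in HepG2, from 3.19 to 16.8 FPKM and from 17.8 to 108 FPKM, and relative to genes of a like HepG2 level they stood at 1.94 and 1.46. PCK2, the mitochondrial enzyme of gluconeogenesis and also an ATF4 target, was at 15.2 and 22.0 FPKM. TRIB1, a pseudokinase that acts on liver lipid synthesis, was at 5.38 and 8.92 FPKM, and at 16.1 in the HepG2 control. Of the 11 described genes of this list 10 lay above 0, the median was 0.35 and 4 were higher (against 2.81% of all genes). The count was 2 against genes of a like HepG2 level, and 1 among the 6 genes no higher in HepG2. The other 13 genes in the table, PCK1 among them at 0.589 and 0.379 FPKM, lay under the filter.
The 200 bases before the DEPP1 start are shown since this gene had the highest ratio, with the forkhead core GTAAACA in capitals.
DEPP1, chr10:44978810-44979009, minus strand: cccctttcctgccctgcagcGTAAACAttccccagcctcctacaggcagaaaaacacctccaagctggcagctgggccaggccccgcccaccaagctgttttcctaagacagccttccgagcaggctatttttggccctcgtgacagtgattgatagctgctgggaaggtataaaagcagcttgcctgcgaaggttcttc
GTAAACA or its reverse complement was in 1 of 9 windows of this list, that of DEPP1, and in 178 of 5315 of all genes (3.35%). The longer letters TTGTTTAC were in 0 of the 9 and in 0.903% of all. GTAAACA was added to the search after the sequence was seen.

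The aryl hydrocarbon receptor (AHR), a ligand-activated factor, drives CYP1A1, a cytochrome P450 that oxidises aromatic compounds. CYP1A1 was at 13.6 FPKM in the control and 35.0 in the treated library, a ratio of 2.57 (2.38 to 2.77), the third highest centred ratio at 1.46. It was at 1.94 and 7.62 FPKM in HepG2. TIPARP, a further AHR target that restrains the receptor, was at 6.15 and 9.35 FPKM (0.69), whereas it was at 4.29 and 4.06 FPKM in HepG2. AHR itself was at 11.3 and 9.08 FPKM (-0.13) and NQO1 at 67.1 and 78.7 FPKM (0.39). CYP1A2, CYP1B1, AHRR, ALDH3A1 and UGT1A6 all lay under 0.2 FPKM in both libraries.

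Of 23 NRF2 and oxidative stress genes 5 were higher and 0 lower (against 2.81% and 1.21% of all genes), with a median of 0.19. The count was 3 against genes of a like HepG2 level, and 2 of the 12 genes no higher in HepG2. AKR1C1, an aldo-keto reductase, was at 16.7 and 35.5 FPKM and AKR1C3 at 13.2 and 22.5, and reads of these near-identical genes may be shared between them. Both were higher in HepG2 (106 and 37.8 FPKM in its control). HMOX1, heme oxygenase, was at 41.9 and 60.7 FPKM (0.68) and was lower in HepG2, at 16.2 FPKM in its control and 11.3 after treatment. The regulator NFE2L2 was at 66.1 and 58.4 FPKM (-0.02), and its classic target GCLM, of glutathione synthesis, at 51.3 and 44.1 FPKM (-0.05).

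Liver secretory genes with a higher level in HepG2 were among the other higher genes. Of 14 hepatocyte plasma protein genes 6 were higher and 0 lower (against 2.81% and 1.21% of all genes), with a median of 0.38. ALB was at 624 FPKM in the control and 1148 in the treated library, a ratio of 1.84 (1.82 to 1.86), and at 2586 and 2421 FPKM in HepG2. AHSG was at 112 and 222 FPKM in PLC/PRF/5 and at 840.0 and 792 in HepG2, and AFP at 288 and 441 against 2976 and 2483. TTR, the thyroid hormone carrier transthyretin, was at 6.83 and 11.6 FPKM against 41.0 in the HepG2 control. ORM1 and ORM2, acute phase glycoproteins that share most of their sequence, were at 30.8 and 61.0 FPKM and at 19.0 and 36.2 FPKM. Relative to genes of a like HepG2 level 0 of the 14 were higher, 1 was lower and the median was -0.0034, and 0 of the 3 genes no higher in HepG2 were higher. The median response within HepG2 was -0.05. SOX9, a transcription factor of bile duct cells and 1 of the 3 described biliary markers (2 higher), was at 12.3 and 17.7 FPKM against 77.5 and 67.0 in HepG2. EPCAM, the other higher marker, was at 10.1 and 16.9 FPKM, and KRT19, not called, at 18.8 and 17.0. CFTR and KRT7, under the filter, were at 4.90 and 2.80 FPKM and at 0.339 and 0.162 FPKM. Relative to genes of a like HepG2 level 0 of the 3 described biliary markers were higher.

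Bile acid and drug metabolism genes had a median of 0.78, with 4 of 8 higher (against 2.81% of all genes). The median was 0.39 with 2 higher against genes of a like HepG2 level, and 0 of the 2 genes no higher in HepG2 were higher. The median was 0.37 over the 14 genes with at least 1 FPKM, and 0.11 with 4 higher and 1 lower over all 29 genes in the table. SULT2A1, which sulphates bile acids and steroids, was at 5.94 and 16.2 FPKM, a ratio of 2.73 (2.34 to 3.19), against 49.1 and 54.8 in HepG2. CYP27A1, a sterol 27-hydroxylase, was at 6.82 and 14.4 FPKM against 41.0 and 36.1. NR0B2 (SHP), a nuclear receptor that shuts off bile acid synthesis, was at 8.15 and 16.9 FPKM against 25.05 and 36.8. ABCB1, the P-glycoprotein drug pump, was at 2.26 and 5.19 FPKM against 21.5 and 24.0. Set against genes of a like HepG2 level, SULT2A1 and NR0B2 stayed past 1.5-fold (0.79 and 0.78) and CYP27A1 and ABCB1 did not (0.45 and 0.40). SPP1, osteopontin, a matrix protein, was at 16.8 and 40.6 FPKM in PLC/PRF/5 and at 210.4 and 269 in HepG2, and lay at 0.70 on that measure. Each group behind the measure held about 159 genes. The 37 genes at least 4 times higher in HepG2, with a median centred ratio of 0.81, were thus grouped with genes that differed less between the lines. Of the other genes among the 15 highest, AZGP1, a secreted glycoprotein, was at 3.20 and 8.52 FPKM, SLC2A1, the glucose carrier GLUT1, at 27.7 and 55.2, SSTR5, a somatostatin receptor, at 2.44 and 5.71, and RAB17, a trafficking GTPase of epithelia, at 2.78 and 6.37. All of these were higher in HepG2, with controls at 21.1, 101, 8.87 and 19.7 FPKM. ZNF114, a zinc finger gene, was closer between the lines, at 2.99 and 6.92 FPKM in PLC/PRF/5 and at 5.18 and 6.77 in HepG2.

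Coagulation genes were split in the same way. Of 15 described genes 4 were higher and 1 lower, beside 2.81% and 1.21% of all genes. But against genes of a like HepG2 level 0 were higher and 1 lower, with a median of -0.07. Of the 4 genes no higher in HepG2, 0 were higher and 1 was lower. F5, coagulation factor V, was at 8.64 and 12.2 FPKM in PLC/PRF/5 and at 34.7 and 29.5 FPKM in HepG2, and lay at -0.07 relative to genes of a like HepG2 level. SERPIND1, heparin cofactor II, was at 12.1 and 22.0 FPKM in PLC/PRF/5 and at 114 FPKM in the HepG2 control. SERPINC1, antithrombin, was at 3.36 and 6.33 FPKM, with the HepG2 control at 37.8 FPKM. The fibrinogen chains, which are higher in PLC/PRF/5, were on the other side: FGB was at 648 and 347 FPKM (0.526 to 0.546 on a ratio of 0.536), FGA at 711 and 449 FPKM (centred -0.50) and FGG at 438 and 289 FPKM (-0.44). In HepG2 their centred ratios were -0.42, -0.39 and -0.25.

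Of the 118 genes at least 8 times lower in HepG2, 12 were called lower and 1 higher, with 11 above 0. Over all genes 1.21% were lower and 2.81% higher. MUC13, a cell-surface mucin, was at 91.9 and 46.2 FPKM, AGR2, an ER disulfide isomerase of mucin-making cells, at 39.5 and 19.4 FPKM, and TM4SF4, a tetraspanin-like membrane protein, at 72.4 and 37.2 FPKM, with HepG2 controls at 0.0684, 0.238 and 0.224 FPKM. These were named after their values were seen. IGFBP3, the main circulating carrier of these growth factors, was at 23.8 and 12.2 FPKM, GJA1, the gap junction protein connexin 43, at 146 and 91.4 FPKM (centred -0.52), and CXCL1, a neutrophil chemokine, at 36.7 and 19.9 FPKM. Against genes of a like HepG2 level the values of IGFBP3, GJA1 and CXCL1 were -0.46, -0.22 and -0.39, none past 1.5-fold. DEFB1, a secreted defensin listed at 0 in both HepG2 libraries, went the other way, at 12.2 and 19.9 FPKM (0.82).

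The lowest ratios of all belonged to genes whose symbols start with RRP, most of them factors that process ribosomal RNA. This list was drawn up with earlier results known, so its direction is a description. All 7 described RRP genes were lower by more than 2-fold, with a median of -2.20. RRP1B was at 25.2 FPKM in the control and 1.86 in the treated library (3098 and 182 fragments), a ratio of 0.0740 (0.0634 to 0.0859). RRP36 was at 30.2 and 3.92 FPKM, RRP12 at 10.6 and 1.16, RRP1 at 11.9 and 1.63, and RRP9 at 11.3 and 1.64. The least abundant were RRP15 at 6.55 and 0.471 FPKM and RRP7A at 5.21 and 0.671. RRP8, under the filter, was at 2.09 and 0.196 FPKM. In HepG2 the same genes did not share this: RRP1B was at 22.0 and 21.4 FPKM and RRP12 at 6.32 and 6.63. EMG1, a methyltransferase of ribosomal RNA, was at 7.77 and 1.26 FPKM, and FTSJ1, a tRNA methyltransferase, at 16.0 and 4.37 FPKM, with 5.81 and 4.67 and with 8.20 and 8.16 FPKM in HepG2. The 38 other nucleolar ribosome biogenesis genes had a median of 0.05 with 0 called in either direction, from -0.32 for UBTF to 0.57 for NOB1.

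Among genes of growth and structure, 3 of 24 growth factor and early response genes were higher and 2 lower. For this and the counts that follow, the shares over all genes were 2.81% higher and 1.21% lower. The growth factor gene IGF2 was at 11.1 and 20.6 FPKM, and at 60.2 in the HepG2 control. The growth factor receptor gene EGFR was lower, at 23.0 and 12.4 FPKM. Of 24 collagen, laminin, integrin and matrix genes 4 were higher, SPP1 by more than 2-fold. COL27A1, a fibrillar collagen, was at 4.39 and 7.54 FPKM and at 30.8 in the HepG2 control. Against genes of a like HepG2 level 1 gene of each of these 24-gene lists was higher and 0 lower, where 1.02% of all genes were higher and 1.02% lower. Of 39 DNA replication and nucleotide synthesis genes 32 lay below 0 with a median of -0.16, and 1 was called lower, UHRF1, which maintains DNA methylation at replication, at 18.7 and 5.80 FPKM against 48.8 and 35.6 in HepG2. Of 32 mitosis and spindle genes 29 lay below 0 with a median of -0.19, and 1 was lower, UBE2C, an enzyme of mitotic exit, at 41.9 and 24.6 FPKM. Of 26 actin and SRF target genes 22 lay below 0 with a median of -0.22, and 1 was lower, the myosin light chain gene MYL9 at 23.4 and 12.6 FPKM. ACTB, beta-actin, was itself at 845 and 544 FPKM (-0.48). On the other side, 16 of 19 autophagy genes lay above 0 with a median of 0.18, among them SQSTM1 (p62) at 88.3 and 100.2 FPKM (0.34) and MAP1LC3B (LC3) at 15.9 and 19.5 FPKM (0.44). Of 11 p53 target genes 2 were higher, TP53INP1 at 6.09 and 10.2 FPKM and GADD45A at 7.29 and 10.6, and 1 was higher against genes of a like HepG2 level. The lists for the proteasome (29 genes), splicing factors (29), translation factors (22), heat shock proteins (30) and nuclear respiratory chain subunits (44) had medians of -0.05, 0.03, 0.06, 0.04 and -0.05 with 0 calls in each.

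**Figure D5:**
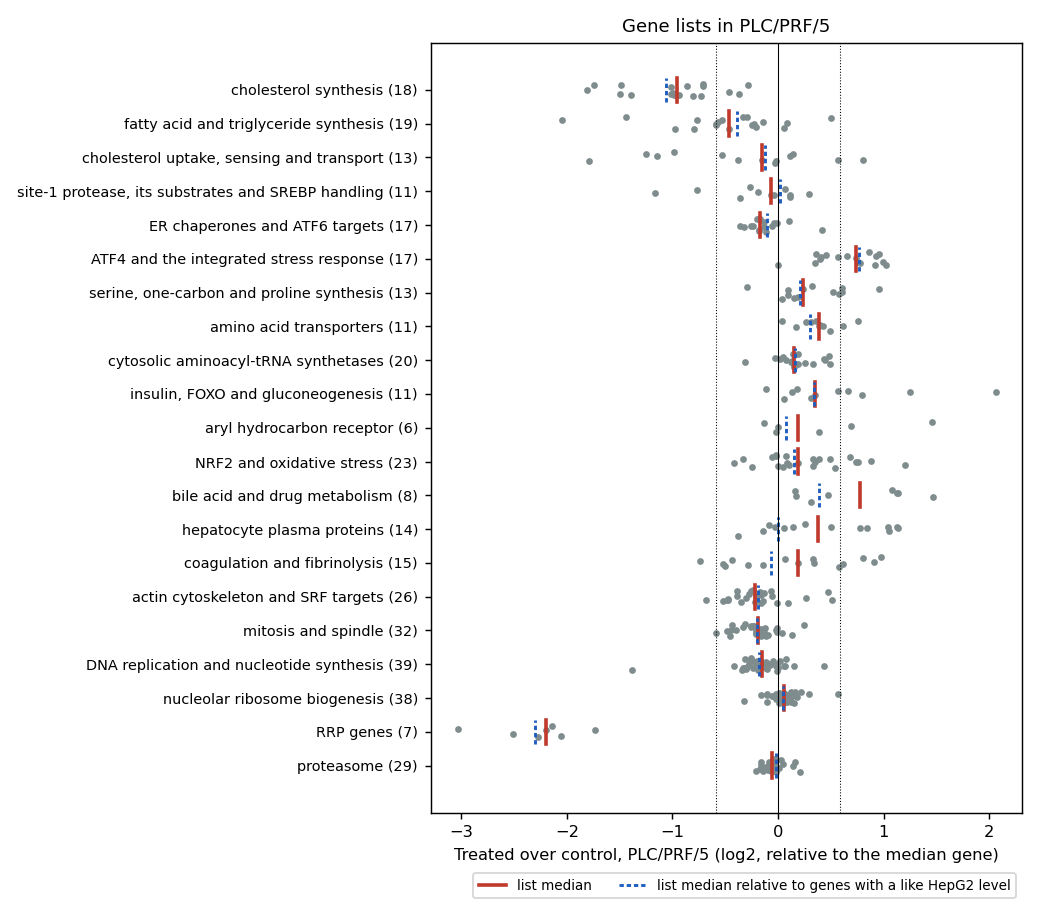
Centred log2 ratios of treated to control in PLC/PRF/5 for the genes of 21 lists, 1 grey point per gene, with 1.5-fold marked by dotted lines. The solid bar is the list median. The dashed bar is the median against genes with a like level in HepG2 relative to PLC/PRF/5. Both bars lie left of 0 for cholesterol synthesis and the RRP genes and right of 0 for the stress response. The bars part for the plasma proteins (0.38 and -0.0034).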

How the data were processed

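RNA was measured in 4 libraries, 1 per group, with groups taken from the labels. The values deposited by the authors were FPKM; reads were aligned with TopHat2 to GRCh38, per the submitters' processing notes, while no source used here gives the counter, versions, annotation or strandedness. Gene types, positions and union-exon lengths came from GENCODE 29, which held 32354 of 32479 genes, and promoter windows from RefSeq.

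Whole fragments were recovered from the FPKM values with the annotated length for 24452 genes (within 0.001 fragments) and from the ratios between libraries for 7619. All 6366 described genes were recovered, 3009 by length and 3357 from ratios. Ratios leave a common factor of the counts unknown. The multiple nearest the annotated length was taken where it lay within 15%, and otherwise the smallest. Interval widths of these genes depend on that choice. Intervals on a ratio of FPKM are exact conditional binomial (Clopper-Pearson) at 95% and cover counting error only. Ratios used a pseudocount of 1 FPKM, which understates the change of low genes. The ratio and interval steps were tested on simulated counts. The genes named were the 15 highest and 15 lowest, up to 4 per list (56 lists), list members past 1.5-fold where at least 1 in 4 were, and all members of 3 lipid lists; some named genes are not reported here one by one, and the counts, medians and sums of their lists include them. The members and lists were chosen with earlier results of these data known. Alternatives are given in the closing section. Python 3.11.15, numpy 2.4.6, pandas 2.3.3 and scipy 1.17.1 were used.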

Additional observations from a re-analysis of the deposited data

How the results depend on the processing

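No paired analysis was possible because each group held 1 library and the labels give no replicate numbers; for the same reason no library could be left out. Counts of higher and lower genes were 206 and 95 with a pseudocount of 0.1, 79 and 44 with 5, 313 and 108 from 1 FPKM, 52 and 28 from 20 FPKM, 231 and 182 with no filter, 113 and 185 on the deposited scale, 24 and 1618 on the TPM scale, 168 and 80 after quantile normalization and 31 and 23 at 2-fold. Added after the data were seen, they were 65 and 65 relative to genes of a like HepG2 level and 28 and 46 among genes no higher in HepG2. The 15 lower cholesterol synthesis genes became 6 from 20 FPKM, 7 at 2-fold and 4 among genes no higher in HepG2. The 6 lower fatty acid genes became 10 with no filter, 10 on the deposited scale, 16 on the TPM scale, 2 at 2-fold and 3 among genes no higher in HepG2. The 10 higher stress response genes became 6 with a pseudocount of 5, 4 from 20 FPKM, 0 on the TPM scale and 1 at 2-fold. The 6 higher plasma protein genes became 2 on the TPM scale and 0 under each HepG2 alternative. Relative to genes of a like HepG2 level, 7 named higher genes changed sign: PLOD2 (-0.084), FN1 (-0.081), SLC16A3 (-0.067), F5 (-0.066), APOH (-0.059), ETFB (-0.059) and SOX9 (-0.037). Fewer genes or members enter under the stricter filters; for the other moves the cause was not tested. With 1 library per group, the spread between cultures is not known, and at the lowest depth, 86 fragments over both libraries, counting error is largest.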

Other observations

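Further genes were higher in the treated PLC/PRF/5 library, and are named after their values were seen. S100P, a calcium-binding protein of epithelial tumours, was at 88.2 FPKM in the control and 149 in the treated library (centred 0.91), and in HepG2 at 47.9 and 86.3 FPKM. INHBE, the activin E chain secreted by the liver, was at 5.77 and 10.7 FPKM (0.95), and BHLHA15 (MIST1), a transcription factor of secretory cells, at 2.99 and 6.57 FPKM (1.08). ERRFI1, a feedback inhibitor of growth factor receptors, was at 48.2 and 72.7 FPKM (0.74), and was at 60.2 and 87.9 FPKM in HepG2. PLIN2, which coats lipid droplets, was at 14.7 and 29.5 FPKM (1.12), and at a higher level in HepG2, 41.3 and 62.3 FPKM. HMOX1 and DEFB1, described above, were higher in the treated PLC/PRF/5 library and not in treated HepG2, where HMOX1 was lower and DEFB1 was listed at 0.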
